A study of Mus musculus with 2 samples.

Results

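Isg15, Usp18, Rsad2, Oasl2, Oas1a, Zbp1, Irf7, Stat2 and Bst2 are 9 interferon-induced genes, 9 of the 31253 genes counted in 2 single-cell libraries of mouse intestine. The members, and the gene lists used below, were chosen by name with earlier results of these data known. Their counts beside the share of all genes are therefore descriptions and give no independent support. The members were described by their unique molecular identifiers (UMIs, each standing for 1 captured transcript) in cells grouped into gates by a marker gene. The whole intestine of 1 wild-type mouse fed a diet with 1% butyrate (the butyrate library) was dissociated and sequenced, and so was that of 1 wild-type mouse on standard chow from the collagen-induced arthritis group (the RA library). Whether arthritis was also induced in the butyrate mouse is not stated in the labels, so diet and disease cannot be told apart. Each group is 1 mouse and 1 library, so no difference between them has a replicate check, and none was tested. Every interval below is a 95% interval for counting error only, and UMIs of 1 cell are not independent, so the spread between mice is not covered.

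Interferons are secreted proteins that warn cells of infection: type I and type III interferons bind receptors that activate the kinases Jak1 and Tyk2, and these build the ISGF3 complex, which contains Stat2 and Irf9. ISGF3 binds the interferon-stimulated response element (ISRE) in promoters and switches on a shared programme of antiviral genes. In the gut, the epithelium is known for its response to type III interferon and for a standing level of such genes that depends on the microbiota. Among the members, Isg15 is a ubiquitin-like protein that is attached to other proteins, and Usp18 removes it and also damps the type I receptor. Rsad2 (viperin) makes a nucleotide analogue that stops viral RNA synthesis, Oas1a belongs to the family that senses double-stranded RNA and activates RNase L, Oasl2 is a relative of that family, and Bst2 (tetherin) holds budding viruses at the cell surface. Zbp1 senses Z-form nucleic acids and can start necroptosis. Irf7 is the transcription factor that amplifies type I interferon genes, and Stat2 is the ISGF3 subunit that is particular to interferon signalling.

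The promoter sequences around the ISRE are shown because they are the element through which this programme is read. The letters searched were GAAANNGAAA on both strands, in the 300 bases from 250 before to 50 after each gene start (RefSeq, GRCm38.p6), where 7 of the 9 members had an entry. Of these, 5 held the motif (Isg15, Rsad2, Oas1a, Stat2 and Bst2), against 3.44% of all 32851 promoter windows. The windows of Oasl2 and Irf7 did not hold these letters. Capitals mark the motif, including overlapping copies, in the strand of the gene; in Rsad2 and Stat2 it lies on the opposite strand and reads TTTCNNTTTC. The stretches lie at chr4:156200850-156200921 (Isg15, minus strand), chr12:26456538-26456597 (Rsad2, minus), chr5:120907526-120907570 (Oas1a, minus), chr10:128270251-128270310 (Stat2, plus) and chr8:71537562-71537627 (Bst2, minus).
Isg15: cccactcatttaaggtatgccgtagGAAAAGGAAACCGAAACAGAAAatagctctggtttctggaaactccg
Rsad2: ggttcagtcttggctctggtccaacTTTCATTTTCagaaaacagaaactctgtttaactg
Oas1a: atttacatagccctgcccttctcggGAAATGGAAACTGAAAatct
Stat2: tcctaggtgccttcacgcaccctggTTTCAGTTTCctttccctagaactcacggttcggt
Bst2: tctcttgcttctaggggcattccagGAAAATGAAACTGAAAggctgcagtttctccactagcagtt
Isg15 held 3 overlapping copies, Oas1a and Bst2 held 2 each, and Rsad2 and Stat2 held 1 each. The letters of a second element, TTCNNNGAA, were found in the windows of Oas1a and Bst2, against 8.3% of all windows. A match is a description of the letters and was not set against binding.

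In the GENCODE M21 annotation of GRCm38, the members lie on 8 chromosomes and only Oasl2 and Oas1a share one, chromosome 5. Irf7 (chromosome 7, 141262706 to 141266481, minus strand) overlaps Phrf1 on the opposite strand, and Usp18 (chromosome 6, 121245906 to 121270917, plus strand) overlaps Gm44148. Whether introns and strand were used in counting is not given in the sources used here. Zbp1 lies on chromosome 2 from 173206612 to 173218923, minus strand.

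The butyrate library held 9959 barcodes and 67894477 UMIs, and the RA library held 10140 barcodes and 61912439 UMIs. Cells needed 500 UMIs, 250 genes and no more than 25% mitochondrial UMIs, which left 8247 butyrate and 6909 RA cells with a median of 5141 and 4712 UMIs. The shallowest deposited barcode had 2313 UMIs in butyrate and 501 in RA, and 731 kept RA cells lay below the butyrate minimum. The mitochondrial limit alone removed 15.4% of butyrate and 30.0% of RA barcodes. The libraries shared 27 barcodes, 19 of them kept in both. The gates asked for at least 1 UMI of Epcam (epithelium), Cd79a (B lineage), Cd3e (T cells) or Cdh5 (endothelium), 2 of Col1a2 (fibroblasts) or 10 of C1qa, C1qb and C1qc together (macrophages). They held 2092, 5108, 1355, 129, 367 and 107 butyrate cells and 1694, 3533, 743, 188, 865 and 130 RA cells, in that order. In each gate every marker fixed for its cell type had UMIs in both libraries. A cell could enter several gates: 885 of the 2092 butyrate and 665 of the 1694 RA Epcam cells also had a Cd79a UMI, so each result is also given for cells of exactly 1 gate where that changes it.

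Over all kept cells the members together had 26305 UMIs in the butyrate library and 16263 in the RA library, or 444 and 339 counts per 1000000 UMIs (CPM). At least 1 member was seen in 55.2% of butyrate cells and 50.1% of RA cells. The excess was not spread evenly over the gates. It was largest in the Epcam and C1q gates, small in the whole Cd79a gate and absent from the summed level of the whole Col1a2 gate. In cells of exactly 1 gate the B lineage excess was larger and the fibroblast sum was higher in butyrate, as the processing settings below show. The ratio of summed levels, butyrate over RA, was 1.72 in the Epcam gate, 1.77 in the C1q gate, 1.37 in the Cd3e gate, 1.29 in the Cdh5 gate, 1.08 in the Cd79a gate and 0.974 in the Col1a2 gate. Differences between gates in these ratios were not tested.

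**Figure D1:**
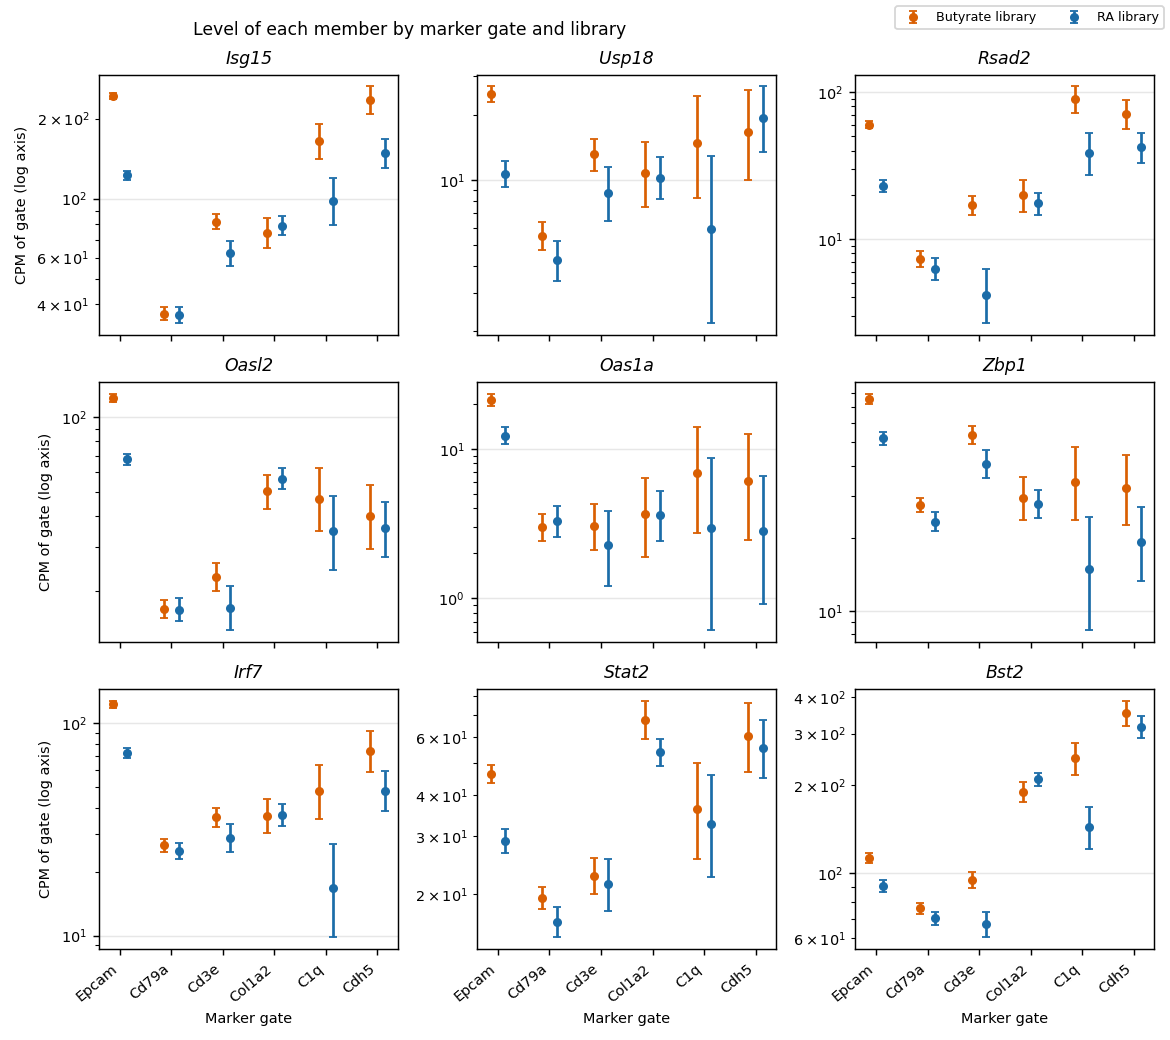
Level of each member (CPM, log axis) in the 6 marker gates, with the butyrate library left of the RA library in each pair and bars for the exact Poisson 95% interval. In the Epcam gate the butyrate point lies above the RA point for each of the 9 members, while in the Cd79a and Col1a2 gates most pairs lie close together.

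In Epcam cells all 9 members were higher in the butyrate library, each with a counting interval above 1, against 21.1% of genes. The pair of the ISG15 system led with the effector Rsad2. Isg15 stood at 243 CPM in butyrate and 122 CPM in RA cells (5260 and 2377 UMIs), a ratio of 1.98 (1.89 to 2.08). Usp18, its deconjugase, stood at 24.8 CPM in butyrate and 10.6 CPM in RA cells, a ratio of 2.34 (1.99 to 2.76). Rsad2 stood at 60.2 CPM in butyrate and 22.9 CPM in RA cells, a ratio of 2.63 (2.36 to 2.94). These 3 had the largest ratios of the 9 in this gate.

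The other effectors of the epithelium differed less. Oasl2 had 119.7 CPM in butyrate and 67.5 CPM in RA Epcam cells, a ratio of 1.77 (1.66 to 1.90). Oas1a had 21.4 CPM in butyrate and 12.3 CPM in RA cells, a ratio of 1.74 (1.49 to 2.04). Bst2 had 113 CPM in butyrate and 90.7 CPM in RA cells, a ratio of 1.24 (1.17 to 1.32). The sensor Zbp1 and Bst2 were the members that stayed under a 1.5-fold difference. Zbp1 had 75.9 CPM in butyrate and 52.1 CPM in RA cells, a ratio of 1.46 (1.35 to 1.58). Both regulators were higher: Irf7 had 123 CPM in butyrate and 72.3 CPM in RA cells, a ratio of 1.70 (1.59 to 1.81). Stat2 had 46.4 CPM in butyrate and 28.9 CPM in RA cells, a ratio of 1.60 (1.45 to 1.78).

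Thus 7 of the 9 members were at least 1.5-fold higher in butyrate Epcam cells, against 5.65% of the 16211 genes with at least 20 UMIs in that gate. Their median log2 ratio was 0.80, and that of all genes was -0.02. In cells that passed the Epcam gate and no other (916 butyrate, 779 RA), all 9 were at least 1.5-fold higher, against 4.35% of genes. Bst2 depended most on this choice: in Epcam-only cells it had 109 CPM in butyrate and 55.6 CPM in RA, a ratio of 1.96, while in cells with both Epcam and Cd79a UMIs it had 104 CPM in butyrate and 116 CPM in RA, a ratio of 0.897. Plasma cell markers, which include Jchain and Mzb1, summed to 2375 CPM in butyrate and 5162 CPM in RA cells of the whole Epcam gate, and to 179.7 and 183.7 CPM in Epcam-only cells. Their part in the Bst2 ratio was not tested.

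**Figure D2:**
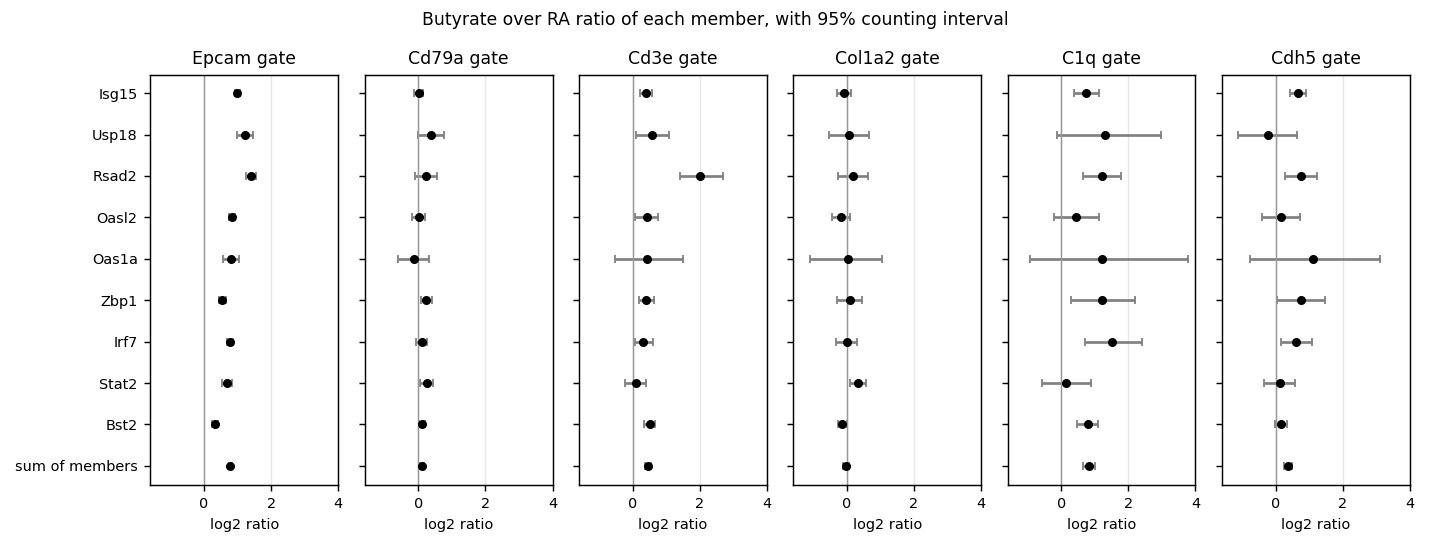
Ratio of member levels, butyrate over RA (log axis), by gate, with exact conditional binomial 95% intervals and a line at 1. All 9 intervals of the Epcam gate lie above 1, and the interval of Bst2 in the Col1a2 gate lies below 1.

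Within the whole Epcam gate the summed members were concentrated in cells with Aqp8, and of the 3 groups below the libraries were farthest apart there. This split and those by Krt20, Mki67 and mitochondrial share below include the cells that also had a Cd79a UMI (885 butyrate, 665 RA). They were not repeated in Epcam-only cells, and the part of such mixed cells in these levels was not tested. Epcam cells with at least 3 UMIs of Aqp8, a water channel of surface colonocytes, and fewer than 10 of Muc2, the goblet cell mucin, made up 27.1% of butyrate and 20.8% of RA Epcam cells. In them the members summed to 2282 CPM in butyrate and 1089.6 CPM in RA cells, a ratio of 2.09. All 9 members were at least 1.5-fold higher there, against 9.35% of genes. Muc2-high cells had summed levels of 509 CPM in butyrate and 307 CPM in RA, a ratio of 1.66, with 7 of 9 members past 1.5-fold against 5.96% of genes. The remaining Epcam cells had 443 CPM in butyrate and 312 CPM in RA, a ratio of 1.42, with 4 of 9 past 1.5-fold against 5.45% of genes. The summed level was higher in butyrate in each of the 3 groups. In Muc2-high cells the richest cell held 258 of the 1391 member UMIs in butyrate and 79 of 889 in RA. For Isg15 the richest cell held 111 of 245 UMIs in butyrate and 37 of 195 in RA. The part of such cells in the Muc2-high ratios was not tested. With cells thinned to equal depth, as described below, 12.7% of butyrate and 12.9% of RA Muc2-high cells had 2 or more members. That ratio was 0.987 (0.478 to 2.03), against 1.82 in Aqp8-high and 1.62 in the remaining cells.

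Isg15 had 815 CPM in butyrate and 332 CPM in RA Aqp8-high cells, a ratio of 2.45 (2.31 to 2.61). Usp18 had 73.2 CPM in butyrate and 19.2 CPM in RA Aqp8-high cells, a ratio of 3.81 (2.97 to 4.92), the highest of the 9 there. Rsad2 had 204 CPM in butyrate and 67.5 CPM in RA, a ratio of 3.02. Stat2 had 104 CPM in butyrate and 47.5 CPM in RA, a ratio of 2.19. Bst2 was not higher in these cells than in the remaining cells of the whole gate. Its level was 107 CPM in butyrate Aqp8-high cells and 117 CPM in the remaining butyrate Epcam cells, and 64.6 and 107 CPM in the same groups of RA cells. All Epcam-only cells together had 109 CPM in butyrate and 55.6 CPM in RA. Among the remaining cells, the richest butyrate cell held 37 Bst2 UMIs with 16 of Siglech. The richest RA cell there held 103 with 47 of Col1a2. The part of such cells in this contrast was not tested.

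Splits by Krt20, a keratin of differentiated surface cells, and by Mki67, a marker of dividing cells, ran the same way. With at least 1 Krt20 UMI the members summed to 1784 CPM in butyrate and 915 CPM in RA cells, and 8 of 9 were at least 1.5-fold higher, against 5.34% of genes. Without Krt20 the sums were 342 CPM in butyrate and 252 CPM in RA, and 5 of 9 were past 1.5-fold, against 6.63%. In Mki67-positive Epcam cells no member was past 1.5-fold, against 12.9% of genes, and the sums were 293 CPM in butyrate and 269 CPM in RA. Irf7 was at 26.8 CPM in butyrate and 33.2 CPM in RA dividing cells, a ratio of 0.806 (0.633 to 1.03), and Oasl2 at 33.0 CPM in both libraries. Mki67-positive cells were few, 175 butyrate and 160 RA, and held a median of 21191 and 20946 UMIs.

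The mitochondrial share of UMIs moved with the members. Epcam cells with 10 to 25% mitochondrial UMIs (787 butyrate, 618 RA) had 1844 CPM of the members in butyrate and 842 CPM in RA, a ratio of 2.19, and those with up to 10% had 438 CPM in butyrate and 288 CPM in RA, a ratio of 1.52. In the higher range all 9 members passed 1.5-fold, against 5.86% of genes, and in the lower range 7 of 9, against 5.61%. Aqp8-high cells had a median mitochondrial share of 19.4% in butyrate and 18.8% in RA, against 2.65% and 3.51% in the remaining Epcam cells. The part of the mitochondrial share in these levels was not tested; the butyrate excess was present on both sides of 10%.

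**Figure D3:**
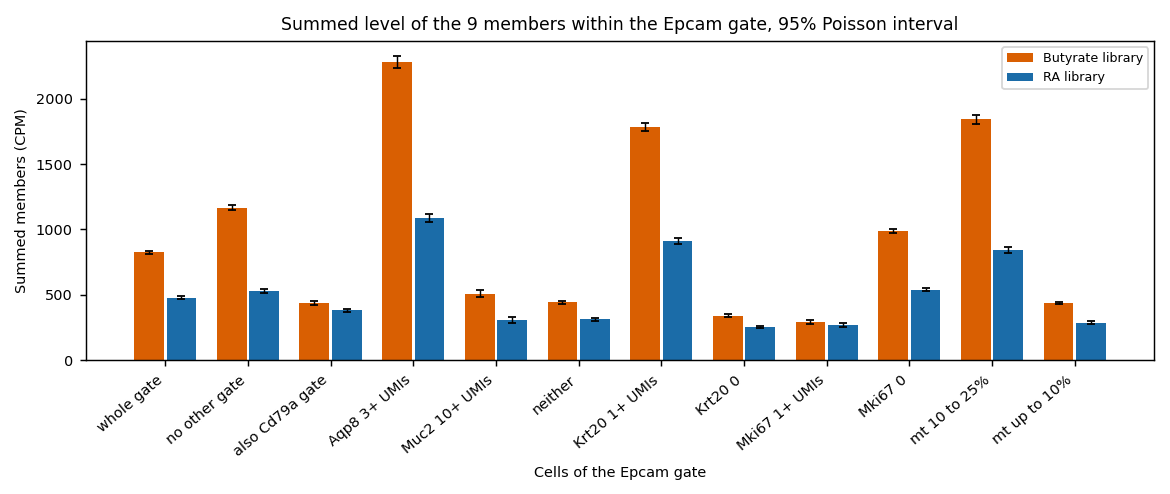
Summed level of the 9 members (CPM) in splits of the Epcam gate, butyrate beside RA, with exact Poisson 95% intervals. Aqp8-high and Krt20-positive cells reach 2282 and 1784 CPM in the butyrate library and 1089.6 and 915 CPM in the RA library, while Mki67-positive cells stay at 293 and 269 CPM.

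Macrophage-gate cells gave the second clear difference, on few cells. In the C1q gate the members summed to 688 CPM in 107 butyrate cells and 388 CPM in 130 RA cells, a ratio of 1.77 (1.56 to 2.01). Of 8 members with at least 20 UMIs, 6 were at least 1.5-fold higher, against 9.79% of 8236 genes, and 5 had an interval above 1, against 8.38%. Irf7 was farthest apart, with 48.0 CPM in butyrate and 16.8 CPM in RA cells (49 and 17 UMIs), a ratio of 2.85 (1.61 to 5.28). Rsad2 had 89.2 CPM in butyrate and 38.6 CPM in RA cells, a ratio of 2.31 (1.57 to 3.45). Zbp1 had 34.3 CPM in butyrate and 14.9 CPM in RA cells, on 35 and 15 UMIs, a ratio of 2.31 (1.23 to 4.55). Bst2 and Isg15 rested on more UMIs and lay in the same direction. Bst2 had 247 CPM in butyrate and 144 CPM in RA cells, a ratio of 1.72 (1.397 to 2.12). Isg15 had 165 CPM in butyrate and 98.0 CPM in RA cells, a ratio of 1.68 (1.302 to 2.18).

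Stat2 and Oasl2 were the exceptions among macrophages, with ratios of 1.11 (0.675 to 1.83) and 1.36 (0.860 to 2.16). Usp18, counted among the 6, had 15 UMIs in butyrate and 6 in RA cells, a ratio of 2.47 (0.907 to 7.78), and Oas1a, with 7 and 3 UMIs, was under the minimum. In cells of the C1q gate alone (74 butyrate, 100 RA) 4 of 7 members passed 1.5-fold, against 8.07% of genes, and Zbp1 had 22.6 CPM in butyrate and 17.7 CPM in RA, a ratio of 1.28 (0.538 to 3.07). The C1q gate had a median of 8087 UMIs in butyrate and 6314.5 in RA cells. Plasma cell markers summed to 122 CPM in butyrate and 1162 CPM in RA cells of this gate, with Mzb1 and Derl3 at 0 in butyrate; their part in these ratios was not tested.

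Of the gates taken whole, the endothelial gate had the highest summed level in both libraries. It was 887 CPM in 129 butyrate cells and 687 CPM in 188 RA cells, a ratio of 1.29 (1.19 to 1.404). Bst2 alone gave 403 of the 1016 member UMIs in butyrate and 557 of the 1211 in RA. The RA cell richest in Bst2 held 42 of these, with 9 UMIs of Siglech and 13 of Ccr9, markers of plasmacytoid dendritic cells. Isg15, Rsad2, Zbp1 and Irf7 were at least 1.5-fold higher, 4 of 8 members against 10.6% of 10530 genes, and the same 4 had an interval above 1, against 11.2%. Isg15 had 235 CPM in butyrate and 148 CPM in RA cells, a ratio of 1.59 (1.33 to 1.89). Rsad2 had 70.7 CPM in butyrate and 42.0 CPM in RA cells, a ratio of 1.68 (1.21 to 2.34). Irf7 had 74.2 CPM in butyrate and 48.2 CPM in RA cells, on 85 UMIs in each library, a ratio of 1.54 (1.13 to 2.10). Zbp1 had 32.3 CPM in butyrate and 19.3 CPM in RA cells, a ratio of 1.67 (1.02 to 2.75). The remaining endothelial members were close between libraries: Bst2 had 352 CPM in butyrate and 316 CPM in RA, Stat2 60.2 and 55.6 CPM, Oasl2 40.2 and 35.7 CPM, each with an interval that included 1. Usp18 was at 16.6 CPM in butyrate and 19.3 CPM in RA endothelial cells, a ratio of 0.860 (0.463 to 1.55). In cells of the Cdh5 gate alone 2 of 7 members were past 1.5-fold, against 10.7% of genes. Butyrate Epcam-only cells had a higher summed level than the whole Cdh5 gate, with Isg15 at 370, Irf7 at 185 and Oasl2 at 181 CPM. The summed level of RA Epcam-only cells was lower than that of the whole Cdh5 gate.

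In T cells Rsad2 stood apart from the other members. The Cd3e gate had 16.9 CPM of Rsad2 in butyrate and 4.18 CPM in RA (182 and 24 UMIs), a ratio of 4.04 (2.63 to 6.47). It was the 1 member of 9 at least 1.5-fold higher on the scale with 0.5 added to each sum, against 4.18% of 13317 genes. Usp18 lay at the limit, with 13.1 CPM in butyrate and 8.72 CPM in RA, a ratio of 1.502 (1.08 to 2.12). Bst2 had 94.9 CPM in butyrate and 66.9 CPM in RA, a ratio of 1.42 (1.26 to 1.60). Isg15, Zbp1 and Oasl2 had ratios of 1.32, 1.32 and 1.33, Irf7 1.25 and Stat2 1.06. In all, 7 of 9 intervals lay above 1, against 10.3% of genes.

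Much of the Rsad2 of the Cd3e gate came from cells that also passed another gate. In Cd3e-only cells it had 9.09 CPM in butyrate and 3.40 CPM in RA, on 64 and 12 UMIs, a ratio of 2.67 (1.43 to 5.45). Oasl2 lost its excess in these cells, with 9.23 CPM in butyrate and 9.91 CPM in RA. Bst2 did not, with 89.3 CPM in butyrate and 61.4 CPM in RA Cd3e-only cells, a ratio of 1.45 (1.24 to 1.70). Of 6 markers listed for plasmacytoid dendritic cells, which carry much Bst2, 5 had UMIs in the Cd3e gate, with sums of 261 CPM in butyrate and 267 CPM in RA, and Siglech, the defining one, had 0 UMIs in both libraries. The part of such cells in the Bst2 ratio was not tested.

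The Cd79a gate as a whole had the lowest summed level of the 6 gates. This level was nearly the same in both libraries, 219 CPM in butyrate and 202 CPM in RA, a ratio of 1.08 (1.04 to 1.12). In Cd79a-only cells the excess of the sum was larger, as the processing settings below show. The median log2 ratio of the members was 0.21 there, against 0.11 in the whole gate. No member reached 1.5-fold in the Cd79a gate, against 4.5% of 15805 genes. Isg15 had 36.9 CPM in butyrate and 36.6 CPM in RA, Oasl2 16.9 and 16.8 CPM, Oas1a 2.99 and 3.31 CPM. Usp18, Zbp1, Stat2 and Bst2 had intervals above 1, with ratios of 1.298, 1.18, 1.19 and 1.08, 4 of 9 members against 19.5% of genes.

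More member UMIs in this gate came from cells shared with the Epcam gate than from cells with Cd79a alone: 3520 and 2980 of 7108 in butyrate, and 2667 and 1304 of 4282 in RA. In Cd79a-only cells Isg15 was at 9.72 CPM in butyrate and 9.73 CPM in RA, and Rsad2 at 1.29 and 1.24 CPM. These were 2.62% and 6.82% of the Epcam-only level of Isg15, and 1.39% and 4.21% of that of Rsad2. Epithelial markers other than Epcam stood at 0.704% in butyrate and 0.932% in RA of their Epcam-only level in the same B lineage cells. Bst2, Stat2, Zbp1, Irf7 and Usp18 stood higher on this measure than Isg15 and Rsad2 in both libraries. Bst2 was at 56.6% of its Epcam-only level in butyrate and 76.5% in RA, Stat2 at 25.9% and 42.2%, Zbp1 at 20.6% and 22.9%, Irf7 at 8.92% and 15.0%, and Usp18 at 7.46% and 17.1%.

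Zbp1 and Bst2 were the members whose intervals lay above 1 in Cd79a-only cells. Zbp1 had 20.6 CPM in butyrate and 13.6 CPM in RA Cd79a-only cells, a ratio of 1.52 (1.27 to 1.82), the 1 member past 1.5-fold there, against 5.11% of genes. Bst2 had 61.5 CPM in butyrate and 42.5 CPM in RA, a ratio of 1.45 (1.31 to 1.60). Bst2 went both ways when the Cd79a gate was split by Jchain, the joining chain of secreted antibody. Below 20 Jchain UMIs it had 66.6 CPM in butyrate and 45.03 CPM in RA cells, a ratio of 1.48 (1.36 to 1.60). At 20 or more it had 180.2 CPM in 120 butyrate and 237 CPM in 149 RA cells, a ratio of 0.760 (0.674 to 0.856). No member passed 1.5-fold higher among 6 measured in Jchain-high cells, against 36.6% of genes, nor among 9 in Jchain-low cells, against 3.61%. Plasma cell markers summed to 1886 CPM in butyrate and 6075 CPM in RA over the Cd79a gate.

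The Col1a2 gate as a whole had no excess of the summed level: 483 CPM in 367 butyrate cells and 495 CPM in 865 RA cells, a ratio of 0.974 (0.918 to 1.03). The direction of this sum was not stable, as the processing settings below show. The median log2 ratio of the members was 0.05 in the whole gate and 0.33 in Col1a2-only cells. No member reached 1.5-fold, against 6.4% of 13754 genes. Stat2 had 67.7 CPM in butyrate and 53.9 CPM in RA, a ratio of 1.26 (1.06 to 1.48), the 1 interval above 1, against 10.7% of genes. Bst2 had 189.9 CPM in butyrate and 209 CPM in RA, a ratio of 0.907 (0.825 to 0.995), the 1 interval below 1, against 13.1%. A single RA cell decided that call. It held 188 of the 1617 Bst2 UMIs of the gate among 56376 UMIs in all, with 0 UMIs of Siglech and Jchain, and passed only the Col1a2 gate. Without the cell richest in Bst2 in each library the ratio was 0.983 (0.892 to 1.08), an alternative chosen after seeing the data.

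In cells of the Col1a2 gate alone Isg15, Rsad2 and Zbp1 were at least 1.5-fold higher in butyrate, 3 of 8 members against 6.7% of genes. Isg15 had 75.0 CPM in butyrate and 48.2 CPM in RA, a ratio of 1.56 (1.27 to 1.91), where the whole gate had 74.4 and 79.2 CPM. Rsad2 had 22.2 CPM in butyrate and 11.8 CPM in RA, a ratio of 1.89 (1.26 to 2.81). Zbp1 had 31.9 CPM in butyrate and 20.7 CPM in RA, a ratio of 1.54 (1.12 to 2.11). Over all kept cells Bst2 was at 99.1 CPM in butyrate and 97.9 CPM in RA, a ratio of 1.01, below that of each gate except Col1a2. The part of the unequal numbers of cells per gate in this ratio was not tested.

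Cells that passed no gate (493 butyrate, 872 RA) had no butyrate excess of the summed level. The members summed to 294 CPM in butyrate and 323 CPM in RA, a ratio of 0.911 (0.832 to 0.998). Isg15 had 60.8 CPM in butyrate and 105 CPM in RA, a ratio of 0.579 (0.480 to 0.697), while Bst2 had 134 CPM in butyrate and 99.8 CPM in RA, a ratio of 1.34 (1.16 to 1.56). None of 8 members was 1.5-fold higher, against 9.55% of 12106 genes, and 2 were 1.5-fold lower, against 25.8%. Neutrophil markers summed to 2281 CPM in butyrate and 2723 CPM in RA in these cells, whose median depth was 4930 and 2432 UMIs; their part in the values was not tested. Cells with 2 or more members made up 23.5% in butyrate and 14.1% in RA, a ratio of 1.67 (1.28 to 2.17), and after thinning, which left out 220 RA cells, 2.03% and 3.53%, a ratio of 0.575 (0.244 to 1.26).

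**Figure D4:**
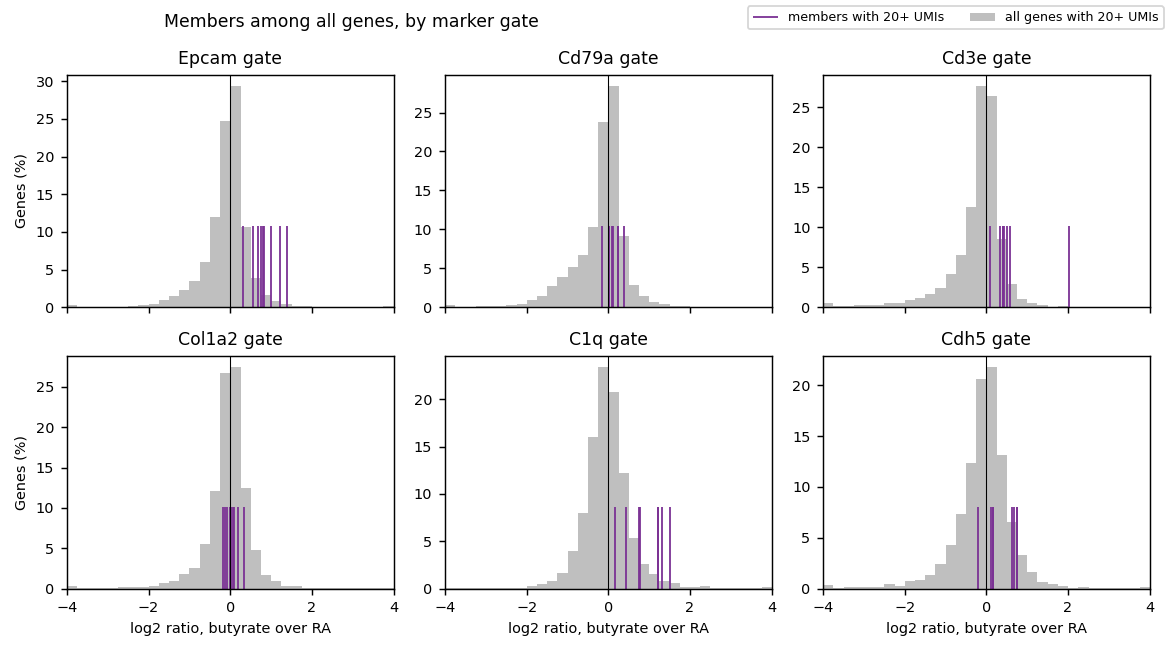
Distribution of log2 ratios, butyrate over RA, of all genes with at least 20 UMIs in each gate, with the members marked, where the end bins hold values beyond the axis. The median of all genes lies near 0 in every gate, while the members' medians are 0.80 in the Epcam gate, 0.98 in the C1q gate, 0.40 in the Cd3e and Cdh5 gates, 0.11 in the Cd79a gate and 0.05 in the Col1a2 gate.

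The share of cells with UMIs of 2 or more members was higher in the butyrate library in each gate. The intervals of the shares overlapped between libraries in the C1q gate (45.2 to 64.8 and 33.7 to 51.3) and the Cdh5 gate (64.3 to 80.3 and 57.6 to 71.7). In the Epcam gate they made up 54.8% of butyrate cells (52.7 to 57.0) and 45.6% of RA cells (43.2 to 48.0). Cdh5 cells came highest, with 72.9% in butyrate and 64.9% in RA, and Cd79a cells lowest, with 15.9% and 11.7%. The Col1a2 gate had 56.7% in butyrate and 47.1% in RA, although its summed level was not higher. For the C1q gate the shares were 55.1% in butyrate and 42.3% in RA, and for the Cd3e gate 38.2% and 30.0%. The interval of the ratio of shares included 1 in the C1q gate (1.303, 0.887 to 1.92) and the Cdh5 gate (1.12, 0.849 to 1.48). That interval treats numbers of cells as Poisson counts, so it is too wide for large shares and cannot decide these 2 gates. In Cd79a-only cells, the lowest population, the share was 10.6% in butyrate and 6.04% in RA, at median depths of 4427 and 4026.5 UMIs, against 6141.5 and 6563.5 in the Epcam gate.

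Since a deeper cell shows more members, each cell was also thinned to 1000 UMIs, which left out 49 RA cells and no butyrate cell of the Epcam gate. The thinned share was 18.9% in butyrate and 9.91% in RA Epcam cells, a ratio of 1.91 (1.59 to 2.31). Aqp8-high cells reached 50.7% in butyrate and 27.8% in RA, and Mki67-positive cells 2.86% and 2.50%. Thinned shares were 4.28% in butyrate and 1.89% in RA for the Cd3e gate, and 2.09% and 1.11% for the Cd79a gate. The Cdh5 gate had 17.8% and 11.4%, the Col1a2 gate 7.08% and 4.89%, and the C1q gate 9.35% and 2.38%, the last on 10 butyrate and 3 RA cells. The ratio intervals of the Cdh5 and Col1a2 gates included 1.

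**Figure D5:**
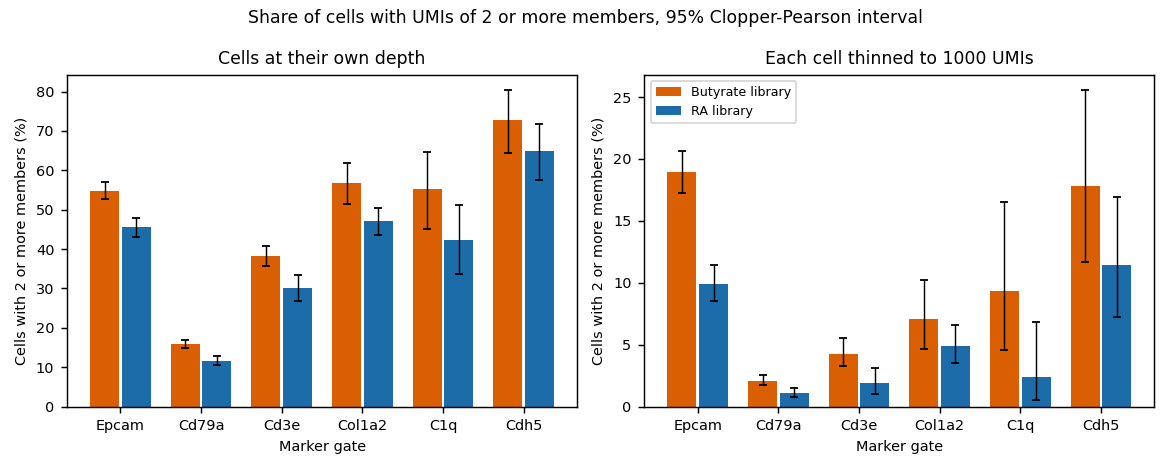
Percent of cells with UMIs of 2 or more members by gate, butyrate beside RA, as counted and after thinning each cell to 1000 UMIs, with exact Clopper-Pearson 95% intervals. The butyrate share is above the RA share in every gate in both panels, from 72.9% and 64.9% in the Cdh5 gate as counted to 2.09% and 1.11% in the Cd79a gate after thinning.

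Most member UMIs of the Epcam gate lay in a minority of its cells. Cells with 5 or more members made up 23.5% of butyrate and 14.0% of RA Epcam cells, and held 74.6% and 60.8% of the gate's member UMIs. All 9 members were seen together in 37 butyrate and 11 RA Epcam cells. The richest single cell had 287 member UMIs in butyrate and 146 in RA. The commonest pair was the same in both libraries, Oasl2 with Irf7, in 27.8% of butyrate and 19.4% of RA Epcam cells, followed by Isg15 with Irf7 in 27.5% and 18.4%. In T cells the commonest pair was Isg15 with Bst2, in 13.8% of butyrate and 9.96% of RA Cd3e cells.

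In Epcam cells interferon-induced genes outside the set, such as Ifit1, followed the number of members seen. The classes were themselves set by interferon-induced genes. Ifit1, an interferon-induced protein that binds foreign RNA, stood at 365 CPM in butyrate and 207 CPM in RA Epcam cells with 2 or more members after thinning. With 1 member it stood at 82.5 CPM in butyrate and 43.4 CPM in RA, and with none at 12.2 and 10.7 CPM. Thus Ifit1 was nearly alike between libraries in Epcam cells with no member left after thinning and differed in the classes with members. The class with none held 1292 butyrate and 1176 RA cells, of which many had members at their own depth. At that depth 536 butyrate and 537 RA Epcam cells had none. Within the class of 2 or more, the number of members was not matched between libraries. Ifit1 also rose over the classes in the Cd79a, Cd3e and Col1a2 gates of both libraries. The C1q and Cdh5 gates did not always do so. With 0, 1 and 2 or more members Ifit1 had 33.3, 6.74 and 0 CPM in RA C1q cells, the last on 3 cells. In butyrate Cdh5 cells it had 131, 190 and 141 CPM, and RA Cdh5 cells with no member left after thinning had 49.7 CPM. Actb, a cytoskeletal gene taken for comparison, ranged from 3133 to 3413 CPM in the butyrate and from 3125 to 3443 CPM in the RA classes of the Epcam gate.

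The order of gates differed between members. Oasl2, Oas1a, Zbp1 and Irf7 were highest in the Epcam gate in both libraries, with an interval against the next gate above 1 each time. Bst2 was highest in the Cdh5 gate in both, at 352 CPM in butyrate and 316 CPM in RA, ahead of the C1q gate in butyrate and the Col1a2 gate in RA. Stat2 was highest in the Col1a2 and Cdh5 gates, which did not differ beyond counting error in either library. For Isg15 the butyrate order began with Epcam and Cdh5 cells, which did not differ (ratio 1.03, 0.915 to 1.17), while in RA Cdh5 cells were above Epcam cells (1.21, 1.06 to 1.38). Usp18 likewise led in Cdh5 cells of the RA library, at 19.3 CPM against 10.6 CPM in Epcam cells, and its butyrate levels in Epcam and Cdh5 cells did not differ beyond counting error. Rsad2 was highest in the C1q, Cdh5 and Epcam gates of the butyrate library with no difference between neighbours, and in RA the Cdh5 and C1q gates were above Epcam. Gates share some cells, so these orders are descriptions of whole gates, and the butyrate order changed in Epcam-only cells. There Isg15, Usp18 and Rsad2 stood at 370, 35.1 and 92.3 CPM in butyrate, against 235, 16.6 and 70.7 CPM in the whole Cdh5 gate. In RA Epcam-only cells they stood at 143, 13.1 and 29.4 CPM, against 148, 19.3 and 42.0 CPM.

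Across the 12 gate and library points the members were not all alike. Over their 36 pairs the median correlation of log levels was 0.66, from -0.316 for Zbp1 with Bst2 to 0.899 for Isg15 with Rsad2. The points share libraries and, in part, cells. Among 13461 other genes, the profile closest to the summed members was that of Rtp4, a chaperone of receptors that interferon induces, with r = 0.96. Lgals9 (0.94), Oxsr1 (0.93), Mlf2 (0.92), Dtx3l (0.91) and Ifit1 (0.91) came next among named genes. The closest single genes were Parp14 for Rsad2 (0.97), Ifit3 for Stat2 (0.96), Ddx60 for Oas1a (0.96), Dtx3l for Usp18 (0.90), Oxsr1 for Isg15 (0.96), Shc1 for Bst2 (0.96), H2-Q2 for Zbp1 (0.91), Abcd3 for Oasl2 (0.92) and Tmigd1 for Irf7 (0.93).

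Most interferon genes were not detected at this depth. Of 13 ligand genes 8 had no UMI in any kept cell of either library, which allows at most 0.0506 CPM in butyrate and 0.0626 CPM in RA, and both type III genes, Ifnl2 and Ifnl3, were among them. Ifnb1, a type I interferon, had 68 UMIs in butyrate and 45 in RA cells, 63 and 26 of them in the C1q gate. There it stood at 61.7 CPM in butyrate and 25.7 CPM in RA, a ratio of 2.40 (1.496 to 3.95), in 10 of 107 butyrate and 13 of 130 RA cells. The butyrate UMIs were thus not in more cells: the richest cell held 17 in butyrate and 6 in RA. Ifng, the type II interferon of T cells, had 37.1 CPM in butyrate and 23.2 CPM in RA cells of the Cd3e gate, on 399 UMIs in 131 cells and 133 UMIs in 48 cells, a ratio of 1.60 (1.31 to 1.96), and its richest cell held 62 UMIs in butyrate and 15 in RA. In the Epcam gate Ifng had 168 UMIs in butyrate and 26 in RA cells, of which 16 and 7 were in Epcam-only cells; T cell markers summed to 373 CPM in butyrate and 269.6 CPM in RA over that gate.

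In Epcam cells few genes upstream of the members passed 1.5-fold, and their counts are to be read against 5.65% of all genes past that limit and 47.6% with a ratio above 1. All 9 receptor and kinase genes had ratios above 1, and 1 of 9 passed 1.5-fold: Ifnlr1, the type III receptor chain, at 6.42 CPM in butyrate and 4.22 CPM in RA, a ratio of 1.52 (1.15 to 2.02). Jak2, a kinase of the type II receptor, had a ratio of 1.37. None of 12 sensors and adapters reached 1.5-fold, with the RNA sensor Ifih1 at a ratio of 1.43. None of 7 further transcription factors did, although all 7 ratios were above 1; at 5.65% of genes, 0 of 12 and 0 of 7 are near the background. Irf9, the DNA-binding subunit of ISGF3, had a ratio of 1.25, and Irf1, a factor that interferon induces, had 137 CPM in butyrate and 106 CPM in RA, a ratio of 1.297 (1.23 to 1.37). Of 6 brakes none passed, and Socs3, an inhibitor of cytokine receptors, had 41.8 CPM in butyrate and 58.2 CPM in RA, a ratio of 0.719. Of 5 genes of the ISG15 cycle 2 passed, Usp18 itself and Herc6, the ISG15 ligase of the mouse, at a ratio of 1.76.

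Most other interferon-induced genes went with the members in the Epcam gate: 36 of 42 had a ratio above 1, against 47.6% of genes. Of the 42, 22 were at least 1.5-fold higher, against 5.65% of genes, and 1 lower, against 13.3%, with a median log2 ratio of 0.64. Ifitm2 (0.638), Cxcl10 (0.738), Ifitm3 (0.741), Isg20 (0.811) and Ifitm1 (0.833) were lower in butyrate, each with an interval below 1. Fibroblast markers summed to 385 CPM in butyrate and 912 CPM in RA over the Epcam gate, and their part in these lower ratios was not tested. Ifit2 had the farthest ratio, 3.13, ahead of Ifit1 (2.46), Phf11b (2.39) and Oas2 (2.24). In the C1q gate 14 of 37 passed, against 9.79% of genes, and in the Cdh5 gate 15 of 38, against 10.6%. The Cd3e gate had 9 of 42, against 4.18%, and the Col1a2 gate 5 of 42, against 6.4%. The Cd79a gate had 3 of 42, near its share of 4.5%, and 4 were lower, against 19.8% of genes. In endothelial cells Cxcl10, a chemokine for T cells, had 176 CPM in butyrate and 34.0 CPM in RA, a ratio of 5.18 (3.87 to 7.03). Its ratio was 1.69 in the C1q gate, 0.989 in the Cd3e gate and 0.660 in the Cd79a gate.

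In the Col1a2 gate, among the transcription factors, Irf8 had 104 CPM in butyrate and 63.0 CPM in RA, a ratio of 1.65 (1.43 to 1.90). Irf1 had 379 CPM in butyrate and 261 CPM in RA, a ratio of 1.45 (1.35 to 1.56). Among the other interferon-induced genes of that gate Ifit3 and Cxcl10 had ratios of 2.04 and 2.03, and Ifit1bl1 had 14.1 CPM in butyrate and 41.5 CPM in RA, a ratio of 0.340. In the Cd79a gate the membrane proteins Ifitm3 and Ifitm2, which block viral entry, were lower in butyrate, with ratios of 0.482 and 0.567. Ifitm3 had 38.2 CPM in butyrate and 79.4 CPM in RA there. In the Col1a2 gate it had 1013 CPM in butyrate and 989 CPM in RA, a ratio of 1.02. Fibroblast markers summed to 204 CPM in butyrate and 545 CPM in RA over the Cd79a gate. Their part in the Ifitm3 and Ifitm2 ratios was not tested.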

How the data were processed

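Droplet single-cell libraries of the intestine of 2 mice were analysed from the raw UMI counts per gene and barcode that the authors deposited. The submitters' processing notes name Cell Ranger 6.0.1, Seurat 4.0.3 and 4.0.4 and mm10, whereas the deposited files name Cell Ranger 7.1.0 per the file headers; counting of introns is not given in the sources used here. No column of another series was present (0).

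A barcode entered when it had 500 UMIs or more, 250 genes or more and no more than 25% mitochondrial UMIs. UMIs were summed per gate and scaled to CPM. Levels have exact Poisson intervals, shares Clopper-Pearson intervals and ratios exact conditional binomial intervals (95%). Ratios of shares used the same ratio interval, with numbers of cells as Poisson counts. Only the ratio interval of gene sums was checked on simulated data, with independent counts and no clustering of UMIs in cells. A gene counted as higher at a 1.5-fold ratio with 0.5 added to each sum, among genes with at least 20 UMIs. All 9 members were named; pathway lists named up to 4 genes with the farthest ratios among those with 50 UMIs. Likeness was Pearson's r of log levels over 12 points, for genes with 200 UMIs or more over all gates. No doublet caller was run; gates were instead made exclusive, and the 5% of barcodes with the most UMIs were left out, as alternatives. Members and lists were chosen with earlier results of these data known. Gene identifiers matched GENCODE M21 for 31107 of 31253 genes. A listed gene whose values are withheld is not reported here. Listed genes Mx1, Mx2 and Oas1b had no match in the files and are not analysed here. Python 3.11.15, numpy 2.4.6, scipy 1.17.1, pandas 2.3.3 and matplotlib 3.10.9 were used.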

Additional observations from a re-analysis of the deposited data

Results flagged for a closer look

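Bst2 lay on opposite sides of equality in different gates. Its ratio, butyrate over RA, was 1.24 in the Epcam gate, 1.08 in the Cd79a gate, 1.42 in the Cd3e gate and 1.72 in the C1q gate, each with a counting interval above 1, and 0.907 in the Col1a2 gate, with an interval below 1. The difference between gates was not tested, since each gate has 1 library per group. The Col1a2 value rested on 1 RA cell, and without the cell richest in Bst2 in each library it was 0.983.

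Barcodes above the mitochondrial limit entered no comparison, yet held the members at high levels. In the 1238 butyrate and 1494 RA barcodes of the Epcam gate with over 25% mitochondrial UMIs, the members summed to 2378 CPM in butyrate and 1418 CPM in RA, a ratio of 1.68 (1.64 to 1.72), where the kept Epcam cells had 827 CPM in butyrate and 479.7 CPM in RA.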

How the results depend on the processing

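Values here are log2 ratios, butyrate over RA. The summed level of the Epcam gate (0.79) was 0.60 with a mitochondrial limit of 10%, 1.15 in cells of exactly 1 gate, 0.93 with stricter gates, 0.83 without the 5% of barcodes richest in UMIs, 0.85 as a mean over cells and 0.74 with mitochondrial, ribosomal, immunoglobulin and hemoglobin genes left out of the denominator. That of the Cd79a gate (0.12) was 0.39 in cells of 1 gate, 0.38 without the richest barcodes and 0.39 as a mean over cells. That of the Col1a2 gate (-0.04) was 0.067, 0.18, 0.35 and 0.28 under the mitochondrial limit, 1 gate, richest barcodes and cell mean settings, so its direction was not stable, and that of the C1q gate (0.83) was 1.01 without the richest barcodes. For the share of cells with 2 or more members, the Cd79a gate (0.44) gave 0.82 in cells of 1 gate and 0.66 without the richest barcodes. Thinning gave 0.93 against 0.27 in the Epcam gate, 0.92 in the Cd79a gate, 1.18 against 0.35 in the Cd3e gate, 0.54 against 0.27 in the Col1a2 gate, 1.97 against 0.38 in the C1q gate and 0.64 against 0.17 in the Cdh5 gate. With the other denominator 2 of 9 members in place of 1 passed 1.5-fold in the Cd3e gate, and at a minimum of 50 UMIs 9 of 29 other interferon-induced genes did in the C1q gate. Among single-member values whose interval excluded 1, direction turned for Oasl2 in the Cd3e gate in cells of 1 gate (-0.10) and for Bst2 in the Col1a2 gate without the richest barcodes (0.22) and as a mean over cells (0.24). The cause was not tested. Of the single-member values under all settings, 316 moved within the main counting interval, 58 moved past it and those 3 turned. Values whose interval included 1 could also change sign, as Isg15 in the Col1a2 gate did (-0.09, against 0.64 in cells of 1 gate). No paired analysis was possible because each group has 1 library. With a floor of 2313 UMIs in both libraries no summed level or share moved past its counting interval. Low UMI sums limit some values, such as Usp18 and Oas1a in the C1q and Cdh5 gates.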

Other observations

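Barcodes with at least 2 UMIs of Siglech, the defining marker of plasmacytoid dendritic cells, numbered 10 in butyrate and 15 in RA. Their Bst2 level was 1806 CPM in butyrate and 1784 CPM in RA, a ratio of 1.01 (0.839 to 1.22), and Irf7, which such cells are known to carry, had 6 and 4 UMIs.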
